A study of Homo sapiens with 24 samples.

Results

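The promoter regions described here gained accessibility in VAL cells after 8 h of CDK9 inhibition and were called in no comparison of OCI-LY3 cells. They were selected on the measured calls themselves. A region qualified when it was in the list of regions increased in VAL at 8 h, had no entry with the same coordinates in any of the 4 OCI-LY3 lists, and lay within 1000 bp of an annotated transcription start site (TSS). Of the 26369 regions called in at least 1 of the 8 lists, 3837 met this rule. They were 3837 of the 5336 promoter regions increased in VAL at 8 h and 3837 of the 8539 VAL-only increased regions at that time. Over all 26369 regions, 42.2% were increased in VAL at 8 h, a value that the rule used and from which nothing is read.

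The assay was ATAC-seq, in which a transposase inserts sequencing adapters into DNA that nucleosomes leave exposed. The experiment covered 6 conditions: OCI-LY3 and VAL, each an established human diffuse large B-cell lymphoma (DLBCL) cell line, at 0, 3 and 8 h of exposure to 30 nM AZD4573, a selective CDK9 inhibitor. Each of these had 4 libraries, giving 24 in all, of which by the labels 2 per condition followed the standard protocol on 50000 cells and 2 followed Fast-ATAC on 5000 cells. The lists name their control DMSO, which is read here as the 0 h libraries of the same line, serving both later times, and the labels do not say whether the 4 libraries of a condition came from separate cultures.

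The deposited lists give region coordinates and no count, fold change or p-value, so a level in each library, its spread and the sequencing depth are unknown here. The call of increased or decreased accessibility is the authors' DESeq2 call, and how the library protocols entered it is not given in the sources used here. A region that is in no OCI-LY3 list was not called there, which does not show that its accessibility was unchanged. The VAL list of increased regions at 8 h held 11121 regions and the matching OCI-LY3 list held 4367. Shares below carry 95% Wilson intervals, which cover counting error over regions only, since neighboring regions are not independent. Lists of changed regions leave out promoters whose accessibility was not called changed, so the B-cell identity of the cells could not be checked against marker genes.

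CDK9 is the kinase of P-TEFb, the complex that releases RNA polymerase II from its pause just downstream of the TSS. Most promoters of broadly used human genes lie in CpG islands, stretches rich in G, C and CG dinucleotides that tend to be nucleosome-poor and bind factors such as SP1, ETS proteins, NRF1 and NF-Y. Promoters of tissue-restricted genes are more often poor in CpG and more often carry a TATA box.

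Stretches of 6 of these promoters are shown first, since the results below turn on their sequence makeup, with 1 promoter for each motif or pair of motifs shown. Each is the part of a called region directly before the TSS that lies in no annotated exon, at most 150 bases, written 5′ to 3′ on the strand of the gene in GRCh37 (hg19), with the match to the named word on either strand in capitals. INTS1, a subunit of the Integrator complex that cuts RNA at paused polymerases, carried the ETS word CCGGAAGT. ATP5MC1, a subunit of the mitochondrial ATP synthase, carried the cyclic AMP response element (CRE) TGACGTCA. HNRNPUL1, an RNA-binding hnRNP protein, carried 2 matches to the NF-Y word ATTGGC. SF3B4, a subunit of the U2 small nuclear ribonucleoprotein, carried the YY1 word AAGATGGC. LAMP1, a lysosomal membrane glycoprotein, carried 2 copies of the E-box CACGTG and 1 stretch holding overlapping matches on both strands to the word TCGCGAGA, called CGCG here. H2AC4, a replication-dependent histone H2A gene, carried the TATA word TATAAA. No named promoter stretch held a match to the NRF1, AP-1 or NFkB words.
INTS1 (chr7:1544026-1544175, minus strand): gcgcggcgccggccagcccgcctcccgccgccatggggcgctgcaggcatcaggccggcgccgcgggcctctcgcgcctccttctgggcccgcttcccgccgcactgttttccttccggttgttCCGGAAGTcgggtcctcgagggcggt
ATP5MC1 (chr17:46970040-46970126, plus strand): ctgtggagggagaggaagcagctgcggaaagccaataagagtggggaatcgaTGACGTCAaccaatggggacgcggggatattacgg
HNRNPUL1 (chr19:41770127-41770276, plus strand): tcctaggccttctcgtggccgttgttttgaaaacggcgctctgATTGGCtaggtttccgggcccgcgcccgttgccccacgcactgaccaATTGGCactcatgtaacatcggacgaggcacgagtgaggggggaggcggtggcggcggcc
SF3B4 (chr1:149899696-149899845, minus strand): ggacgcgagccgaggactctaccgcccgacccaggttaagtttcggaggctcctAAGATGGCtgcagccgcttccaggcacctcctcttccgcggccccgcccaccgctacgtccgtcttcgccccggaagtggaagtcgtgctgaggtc
LAMP1 (chr13:113951404-113951553, plus strand): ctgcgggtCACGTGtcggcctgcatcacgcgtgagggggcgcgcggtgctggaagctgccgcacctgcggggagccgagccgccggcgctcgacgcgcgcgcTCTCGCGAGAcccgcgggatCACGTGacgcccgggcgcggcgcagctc
H2AC4 (chr6:26033847-26033996, minus strand): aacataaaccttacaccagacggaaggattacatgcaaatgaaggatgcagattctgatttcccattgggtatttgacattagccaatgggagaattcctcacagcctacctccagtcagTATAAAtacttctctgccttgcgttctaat

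The GC content of the printed stretch was 76.0% for INTS1, 78.0% for LAMP1 and 41.3% for H2AC4, with an observed/expected CpG ratio of 1.02, 1.28 and 0.317 in the same order. The histone stretch stood apart from the other two, being poor in CG dinucleotides close to its TATA word. Its whole called region, of 2705 bp and shared with H3C2, had a GC content of 47.8% and a CpG ratio of 0.811. A match is a description of the letters and does not show that a factor bound there.

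VAL-only increased promoters were richer in GC and CpG than VAL-only decreased ones and close to those increased in both lines. These measures are not given over all annotated promoters, so whether the values differ from those of promoters in general is unknown here. Their median GC content was 62.9% (quartiles 57.6 and 67.8%, n = 3837 regions) and ranged from 27.5 to 82.6%. Promoters increased in both lines at 8 h, 1355 regions, had a median of 61.1%, whereas the 1047 VAL-only decreased promoters had a median of 47.1%. The median CpG ratio was 0.711 in the VAL-only increased promoters, 0.696 in those increased in both lines and 0.409 in the VAL-only decreased ones. A region was counted as CpG-island-like when its GC content was over 50% and its CpG ratio over 0.6. This held for 2752 of 3837 VAL-only increased promoters, which is 71.7% (interval 70.3 to 73.1), for 70.3% (67.8 to 72.7) of promoters increased in both lines, and for 32.2% (29.4 to 35.1) of VAL-only decreased promoters. The intervals of both increased sets overlapped, and those of the increased and decreased sets did not. The 4702 VAL-only increased regions away from promoters were CpG-island-like in 6.89% (6.20 to 7.65).

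**Figure D1:**
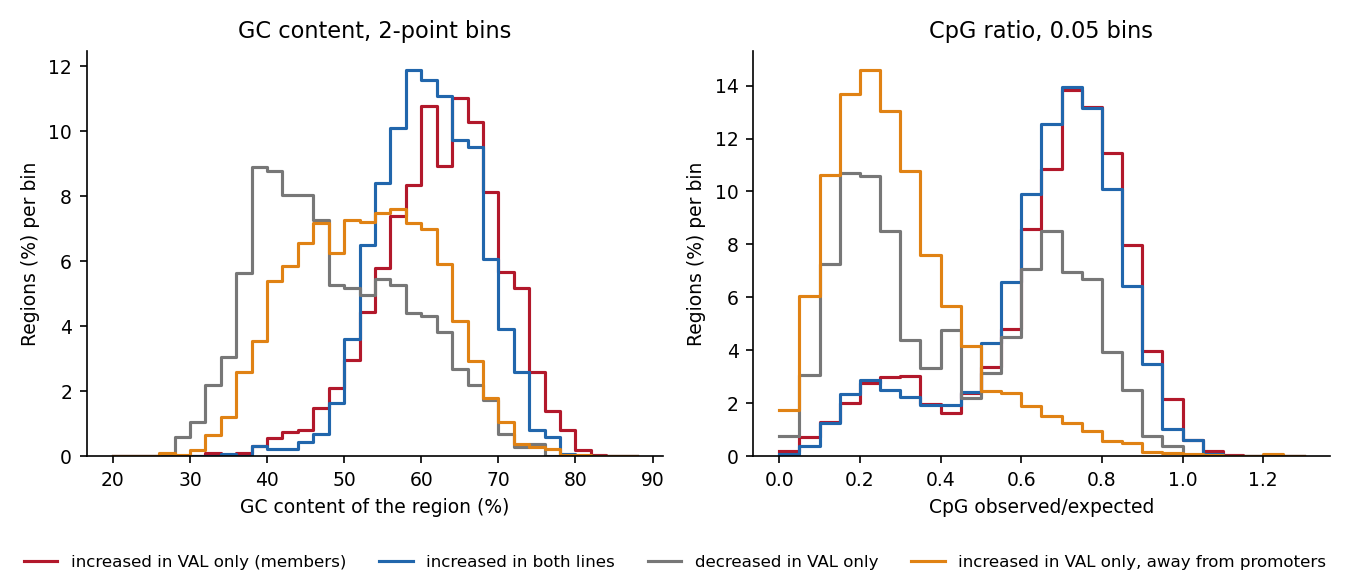
Percent of regions per bin of GC content (left, percent, 2-point bins) and of observed/expected CpG ratio (right, 0.05 bins) for 4 sets of regions at 8 h: VAL-only increased promoters (red, 3837), promoters increased in both lines (blue, 1355), VAL-only decreased promoters (gray, 1047) and VAL-only increased regions away from promoters (orange, 4702). The red line lies slightly above the blue one in GC, with medians of 62.9 and 61.1%, and the gray line peaks at lower GC, with a median of 47.1%.

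The annotation near the region went with its composition. Of the VAL-only increased promoters, 3195 had a protein-coding TSS within 1000 bp, and 80.4% (79.0 to 81.7) of these were CpG-island-like. The other 642, whose only nearby TSS belonged to genes not annotated as protein-coding, were CpG-island-like in 28.5% (25.1 to 32.1). The TSS nearest the region center belonged to a protein-coding gene in 78.4% of regions (77.1 to 79.7), to a long noncoding RNA in 15.7% (14.6 to 16.9) and to a microRNA hairpin in 1.09% (42 regions). Among promoters increased in both lines the protein-coding share was 85.2% (83.3 to 87.0), and among VAL-only decreased promoters it was 53.01% (49.98 to 56.02). VAL-only increased promoters therefore lay between the other sets on this measure, with intervals that did not overlap either.

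Most of these regions sat over the TSS itself. The region covered an annotated TSS in 3402 of 3837 cases, 88.7% (87.6 to 89.6), compared with 94.2% (92.9 to 95.4) of promoters increased in both lines and 78.7% (76.1 to 81.1) of VAL-only decreased promoters. CpG-island-like members covered a TSS in 95.5% (94.6 to 96.2), and the 1085 others in 71.4% (68.7 to 74.0). The median region was 1501 bp wide (range 357 to 3026), against 1616 bp for promoters increased in both lines and 1586 bp for VAL-only decreased ones. The widest was at MED18, a subunit of the Mediator head, at chr1:28653269-28656294 and 3026 bp. NXPH4, which encodes a neurexophilin, followed with 3013 bp, then ABHD15, which encodes an abhydrolase-domain protein, with 2997 bp, TRIP10, which encodes a CDC42-interacting F-BAR protein, with 2992 bp, and SAMD10 with 2988 bp.

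At the distance limit that the rule sets, regions just inside lay 991 bp from a TSS of POU5F1 and 987 bp from the lncRNA gene ENSG00000232220, and those just outside lay 1001 bp from SFN, 1002 bp from RN7SL138P and 1003 bp from HMGA1P3. There were 37 VAL-only increased regions at 901 to 1000 bp and 29 at 1001 to 1100 bp, so few members were near the limit.

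Oriented by the strand of the nearest gene, the centers were shifted slightly into the gene. The center lay downstream of the TSS in 56.6% of regions (55.0 to 58.1), and the median center was 26.5 bp downstream (quartiles -92.5 and 179.5 bp). In promoters increased in both lines the downstream share was 63.0% (60.3 to 65.5) and the median 45.0 bp. In VAL-only decreased promoters these values were 56.5% (53.5 to 59.5) and 41.0 bp. The downstream share was thus higher in promoters increased in both lines than in the VAL-only increased ones, and that of the decreased ones was within the interval of the latter. In the profile over the TSS, coverage by VAL-only increased promoters was highest from -75 to 25 bp, where up to 88.7% of regions reached, and fell to 76.6% at -475 bp and 81.7% at 475 bp. For promoters increased in both lines the highest coverage was 94.4%, at 125 to 175 bp.

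**Figure D2:**
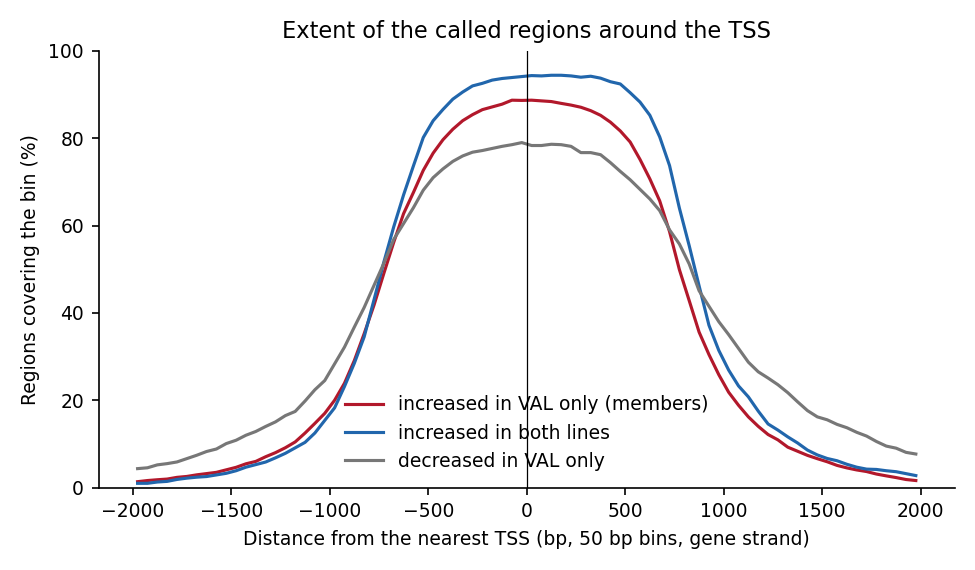
Percent of regions that cover each 50 bp bin (y axis) against distance from the nearest TSS in bp on the gene strand (x axis, negative before the TSS) for VAL-only increased promoters (red), promoters increased in both lines (blue) and VAL-only decreased promoters (gray). The red curve peaks at 88.7% and is lower than the blue curve, which peaks at 94.4%, near the TSS and on the downstream side, while at -975 bp it is slightly higher (20.04 against 18.3%), and the gray curve peaks at 79.0% and has wider tails.

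Start sites on both strands, as at bidirectional promoters, were less frequent in the VAL-only increased promoters than in those increased in both lines. TSS of any annotated gene lay on both strands within 1000 bp of 27.5% of members (26.1 to 28.9), of 36.8% of promoters increased in both lines (34.3 to 39.4) and of 14.5% of VAL-only decreased promoters (12.5 to 16.8). Counting protein-coding TSS alone, the shares were 8.94% (343 regions, 8.08 to 9.88), 16.5% (14.6 to 18.6) and 1.81% (1.16 to 2.82). Regions with 2 or more protein-coding genes were 432 of the members, 11.3%, and 20.5% of promoters increased in both lines.

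A minority of the members was called early. In VAL at 3 h, 980 of the 3837 regions were already called increased, 25.5% (24.2 to 26.9), beside 29.7% of all 11121 regions increased in VAL at 8 h. None was called decreased at 3 h, beside 0% of all 11121 regions increased in VAL at 8 h. The 3 h and 8 h comparisons share their 0 h libraries, so these overlaps are a description. Among promoters increased in both lines 62.8% (60.2 to 65.3) were called increased at 3 h, and among VAL-only increased regions away from promoters 20.7% (19.6 to 21.9). The lower share in members than in promoters increased in both lines was present on 5 chromosomes of high GC content (16, 17, 19, 20 and 22, chosen after the values were seen), with 36.0% against 67.1%, and on the other chromosomes, with 16.9% against 58.0%.

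The 980 members called at both times differed from the 2857 called at 8 h alone in composition and in where they lay. They were CpG-island-like in 76.5% (73.8 to 79.1) against 70.1% (68.4 to 71.7), and covered a TSS in 92.8% (91.0 to 94.2) against 87.3% (86.0 to 88.4). On chromosome 22 lay 13.4% of the first and 6.20% of the second, on chromosome 17 18.8% and 12.3%, and on chromosome 19 15.3% and 9.14%. Their median widths were 1551 and 1482 bp and their median GC contents 63.6 and 62.6%. The early members were thus more often CpG-island-like and more often on these chromosomes.

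The chromosomes were unevenly represented. Of 20136 protein-coding genes, 3513 had a VAL-only increased promoter region within 1000 bp of a TSS, 17.4%, which is the background for the gene counts below. On chromosome 22 the share was 57.8%, or 260 of 450 genes. It was 40.9% on chromosome 17 (486 of 1189 genes), 35.0% on chromosome 20, 32.8% on chromosome 15, 30.9% on chromosome 16 and 26.6% on chromosome 19 (393 of 1480 genes). At the other end it was 6.78% on chromosome 2, 4.74% on chromosome 4 and 1.27% on chromosome X (11 of 868 genes). In all, 10 of the 23 chromosomes compared were above the share over all genes.

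Promoters increased in both lines, found at 7.45% of all protein-coding genes, ranked the chromosomes in another order. Chromosome 19 came first, with 24.9% of its genes, followed by chromosome 16 with 20.1% and chromosome 17 with 13.4%, while chromosome 22 had 6% and chromosome 15 had 4.13%. Chromosomes 15, 20 and 22, picked after their shares were seen, together held 711 members, 18.5% (17.3 to 19.8), against 6.57% (5.37 to 8.01) of promoters increased in both lines. Chromosome 19 held 10.7% of members (9.77 to 11.7) against 24.4% (22.1 to 26.7). VAL-only decreased promoters, found at 2.97% of all protein-coding genes, were scarce on the chromosomes with the highest member shares, with 0 genes on chromosome 19, 0.222% of genes on chromosome 22 and 0.336% on chromosome 17, and were most frequent on chromosome 4, with 8.03%. More genes had a decreased than an increased VAL-only promoter on 2 of the 23 chromosomes, 4 and X.

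**Figure D3:**
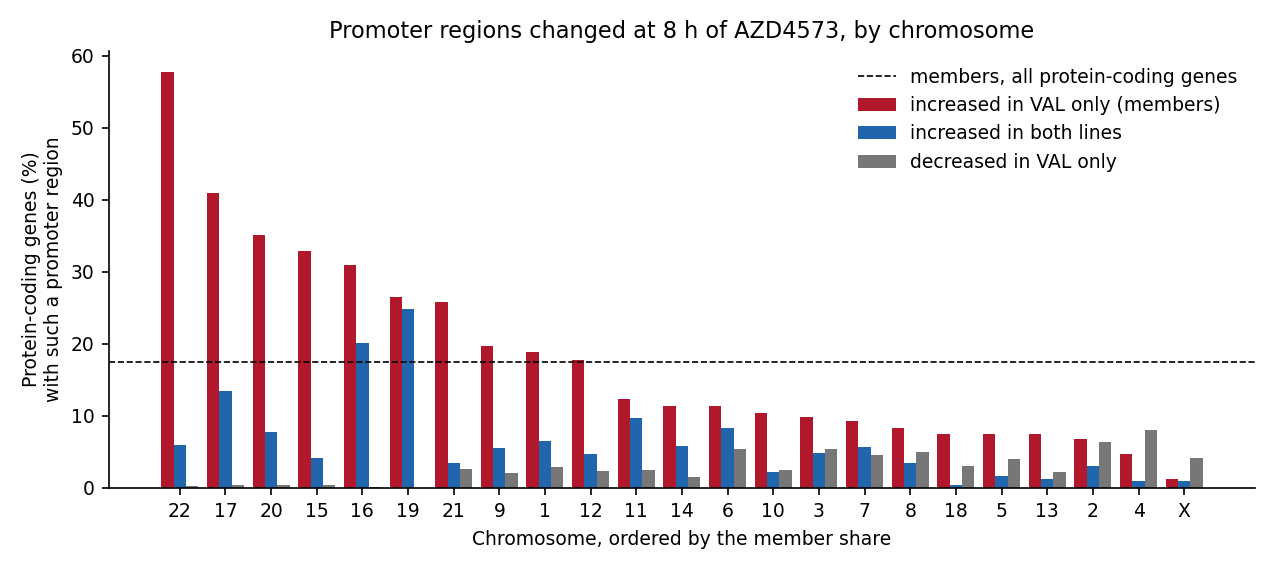
Percent of the protein-coding genes of each chromosome (x axis, ordered by the red bars) that have a VAL-only increased promoter region (red), a promoter region increased in both lines (blue) or a VAL-only decreased promoter region (gray) at 8 h, with the dashed line at 17.4%, the share of all protein-coding genes with a VAL-only increased one. Red bars run from 57.8% on chromosome 22 to 1.27% on X, blue bars are highest on chromosome 19 (24.9%), and gray bars are close to 0 on the 6 leading chromosomes.

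As a description over the 23 chromosomes, the member share followed the GC content of the chromosome (Pearson's r = 0.849, Spearman's rho = 0.893) and the number of protein-coding genes per megabase (r = 0.587, rho = 0.863). The points share the same libraries and the same calls, and genes on a chromosome share its base composition. The part of base composition in the result was not tested.

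The share of genes differed with promoter GC content and, within a GC class, with the chromosome. When the genes were ranked by the GC content of the 300 bases around their representative TSS and divided into 5 equal classes, a member was found at 4.23, 14.1, 18.4, 22.6 and 29.3% of genes from the lowest to the highest class. For promoters increased in both lines the shares leveled off, at 1.78, 7.44, 9.67, 10.2 and 8.73%. For the VAL-only increased promoters, the share within chromosome 22 went from 35.3 to 69.9% across the classes, within chromosome 17 from 9.94 to 56.2% and within chromosome 2 from 0.870 to 13.9%. Genes of the lowest class on chromosome 22 (12 of 34 genes) had a member more often than genes of the highest class on chromosome 2, a pair picked after the values were seen. The lowest classes on chromosomes 17 and 19, at 9.94 and 12.9%, were below the 13.9% of that highest class. Classes use the representative TSS, whereas a member at any annotated TSS of the gene was counted. A member may therefore lie at another start site than the one that set the class.

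Genes with a VAL-only increased promoter were of ordinary length, with a median of 27.3 kb against 27.2 kb for all protein-coding genes. The median was 16.8 kb for genes with a promoter region increased in both lines and 95.5 kb for those with a VAL-only decreased one. A gene usually had 1 such region: 3371 genes had 1, 135 had 2 and 7 had 3. The 7 were ABR and ARAP1, which encode regulators of small GTPases, BRF1, an RNA polymerase III factor, CYTH1, an exchange factor for ARF GTPases, GNAS, the stimulatory G protein alpha subunit at a complex imprinted locus, MRTFA, a coactivator of SRF, and RERE, a nuclear receptor coregulator. The 3 regions at MRTFA on chromosome 22 had GC contents of 46.7, 39.9 and 63.6%, and only the last was CpG-island-like. That region and none of the other two was also called at 3 h.

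Some genes carried regions of different sets. A region can be in 1 set only, so a gene with 1 member needs another region to be counted. This lowers the shares of genes with a member below by design, and they are not read as a depletion. A promoter region increased in both lines accompanied a VAL-only increased one at 96 genes, 2.73% of the 3513 beside 7.45% of all protein-coding genes, and a VAL-only decreased one did so at 3 genes, beside 2.97% of all, FAM20A, LGR6 and MCC, which were named after their values were seen. Overlap with an OCI-LY3 region cannot occur, because all lists draw on 1 merged set of peaks. An OCI-LY3 region lay within 1000 bp of 38 members, 0.990%, and within 10000 bp of 582, 15.2%, of which 527 had an increased and 62 a decreased one.

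By gene function, VAL-only increased promoters were found across housekeeping and regulatory classes alike. Counts were made for 21 lists of protein-coding genes, of which 18 had a share above the 17.4% of all protein-coding genes and 3 a share at or below it. The 17.4% counts every annotated protein-coding gene, including those with no peak in these cells, which cannot have a member. How many these are is unknown here, so a share above 17.4% is not read as a result about a list. Lists differ in the chromosomes they sit on and may differ in promoter GC content, which was not compared between lists. Both went with the share of genes above, so no list is singled out from its count. Of the 3513 genes with a member, 975 had one that was also called at 3 h, 27.8%, which is the share to set beside the counts at 3 h below.

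The machinery that AZD4573 acts on was among them. Of 37 genes for P-TEFb, pausing and elongation factors, 13 had a member, 35.1%, 8 had a promoter region increased in both lines and 1 a VAL-only decreased one. They included CDK9 itself, HEXIM1 and HEXIM2, which hold P-TEFb inactive in the 7SK complex, ELL, a super elongation complex subunit, LEO1, a PAF1 complex subunit, and INTS1. The CDK9 region, at chr9:130547162-130549032, was 1871 bp wide with 1151 bp before the TSS, had a GC content of 73.8% and was called at 3 h as well. The HEXIM1 region, at chr17:43224663-43226936, was called at 8 h alone, and that of HEXIM2, at chr17:43238070-43239662, at both times. Of 88 genes for RNA polymerase II subunits, general transcription factors and Mediator, 21 had a member, 23.9%, of which 13 had one that was also called at 3 h. MED1, MED13 and MED13L were among these 21, MED1 and MED13 with regions called at both times and MED13L with one called at 8 h alone.

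RNA processing and protein synthesis genes had members at moderate shares. SR and hnRNP splicing factors had members at 15 of 51 genes, 29.4%, among them HNRNPH1, HNRNPR and the U2 subunits SF3A1, SF3B3 and SF3B4. Cytosolic ribosomal proteins had members at 17 of 85 genes, 20%, and promoter regions increased in both lines at 30. Mitochondrial ribosomal proteins had members at 17 of 78 genes, 21.8%, and respiratory chain subunits and assembly factors at 22 of 105, 21.0%. Promoter regions increased in both lines were at 19 of the mitochondrial ribosomal protein genes and at 19 of the respiratory chain genes, beside 7.45% of all protein-coding genes. Proteasome subunits had members at 17 of 48 genes, 35.4%, and promoter regions increased in both lines at 8. PSMA4, PSMB3 and PSMB6 of the core particle had regions called at both times, and PSMA5, PSMB4 and the immunoproteasome subunit PSMB10 at 8 h alone.

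**Figure D4:**
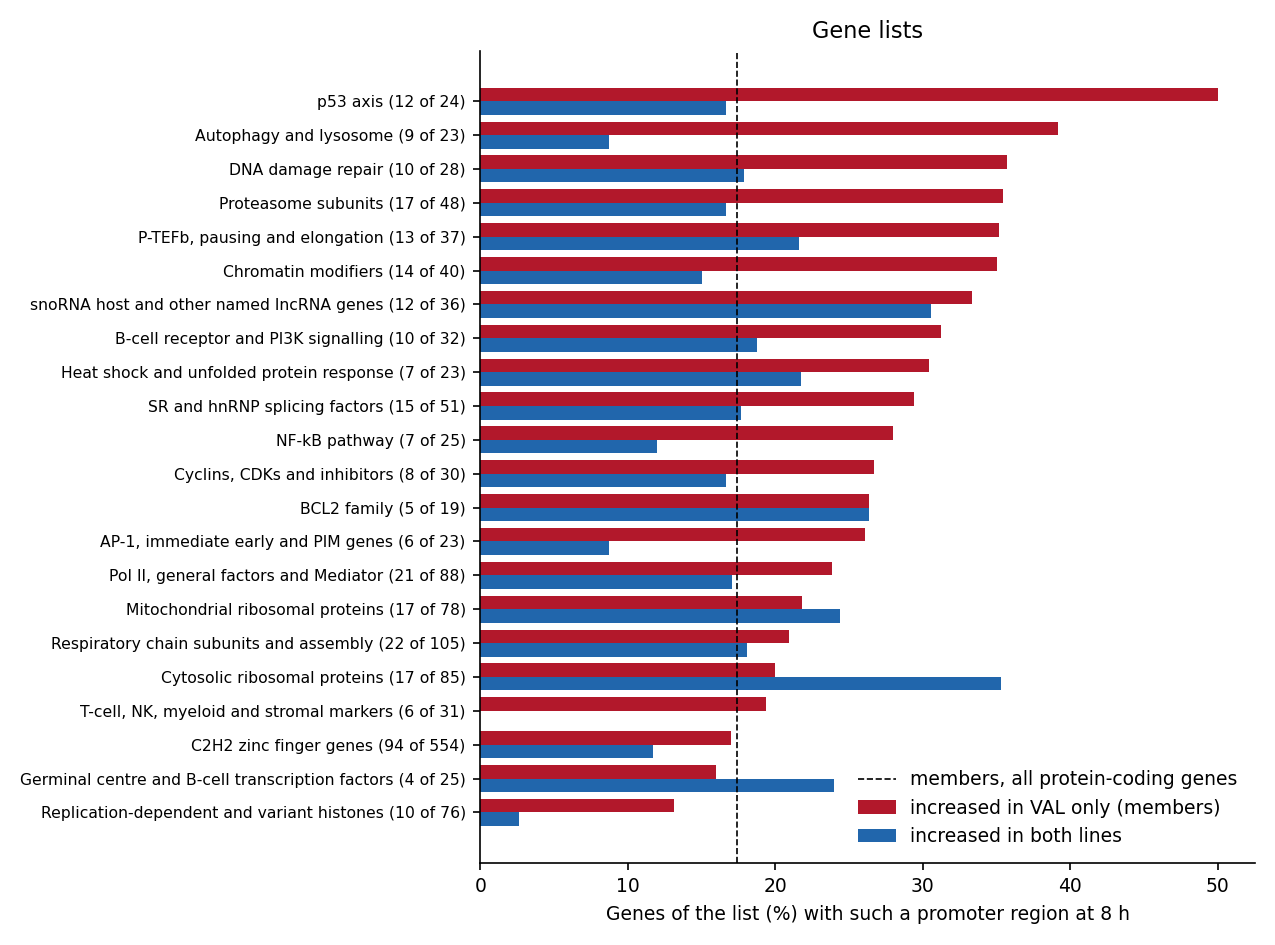
Percent of the genes of each of 22 lists (x axis) with a VAL-only increased promoter region (red) or a promoter region increased in both lines (blue) at 8 h, ordered by the red bars, with the number of genes with a VAL-only increased region and the size of the list beside each name. The dashed line marks 17.4% of all protein-coding genes and does not apply to the list of lncRNA and snoRNA host genes. Red bars run from 13.2% of histone genes to 50% of p53 axis genes, and the blue bar is longer than the red one for cytosolic and mitochondrial ribosomal proteins and for germinal center and B-cell transcription factors.

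Among genes of the p53 axis, a member was found at 12 of 24, 50%, and 4 had a promoter region increased in both lines. MDM2, the ubiquitin ligase that degrades p53, had a region at chr12:69201152-69203016 that covered its TSS and was called at 8 h alone. So had its relative MDM4, AEN, an apoptosis-enhancing nuclease, and PLK3, a stress-response kinase. DDB2, a DNA damage recognition factor, and PHLDA3, an inhibitor of AKT, had regions called at both times. Of 28 DNA repair genes 10 had a member, 35.7%, among them CHEK2, a checkpoint kinase, and RPA1, a single-strand DNA binding protein.

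In the BCL2 family, 5 of 19 genes had a member, 26.3%, 5 had a promoter region increased in both lines and 1 a VAL-only decreased one. The mean share of all genes with a member on the chromosomes of the 19 was 25.6%. The members were at BBC3, BID and BIK, which encode pro-apoptotic BH3-only proteins, at BOK, a pro-apoptotic effector, and at BCL2L2, which encodes the anti-apoptotic BCL-W. The regions of BBC3 and BIK covered a TSS and were called at both times. The regions of BID, BCL2L2 and BOK were called at 8 h alone, and that of BOK did not cover the TSS. Of 30 cyclin, CDK and inhibitor genes, 8 had a member, including CCND3 and CCNE1, which encode cyclins of the G1 phase.

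Signaling genes of B cells had members at counts around or above the background. Of 32 genes of B-cell receptor and PI3K signaling, 10 had one, 31.2%, including CD81, PIK3CD, the catalytic PI3K delta subunit, PLCG2, phospholipase C gamma, AKT2 and MTOR. PLCG2 had 2, each over an annotated TSS. The one at chr16:81812080-81814132 was CpG-island-like and called at 8 h alone. The other, 887 bp wide at chr16:81843870-81844756, had a GC content of 44.8% and was called at both times. Of 25 NF-κB pathway genes 7 had a member, 28.0%, among them NFKBIA, the inhibitor IκBα, NFKB2 and RELB of the noncanonical pathway, and MAP3K14, its kinase NIK. Of 25 germinal center and B-cell transcription factors 4 had a member, 16%, near the background, 6 had a promoter region increased in both lines and 3 a VAL-only decreased one. These 4 were IKZF3 (Aiolos), IRF8, STAT6 and TCF3, and all 4 genes had a member called at 3 h, beside 27.8% of all genes with a member. The STAT6 region did not cover the TSS and was shared with LRP1.

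Of 23 AP-1, immediate early and PIM genes 6 had a member, 26.1%. PIM1 and PIM3 encode serine/threonine kinases that promote survival and growth. The PIM3 region, at chr22:50353524-50355531, was 2008 bp wide, had a GC content of 75.2% and was called at both times. Like every member it was in no OCI-LY3 list, which does not show that accessibility at PIM3 was unchanged in that line. The PIM1 region, at chr6:37136920-37139036, was 2117 bp wide, had a GC content of 69.8% and was called at 8 h alone. IER2, an immediate early gene, had 2 regions called at both times. Of 16 genes picked from those the study discusses, 7 had a member (BBC3, DTX1, IRF8, MDM2, PIM1, PIM3 and PLCG2) and 9 had none. A promoter region increased in both lines was at 5 of the 16, namely AKT1, CDKN1A, JUNB and MCL1, which had no member, and IRF8, which had both. These genes were picked by the study and are not independent of these samples.

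Chromatin modifiers had a member at 14 of 40 genes, 35.0%, a promoter region increased in both lines at 6 and a VAL-only decreased one at 3. The members included those of the acetyltransferase gene CREBBP, the BET reader gene BRD3, the remodeler gene CHD4 and CTCF, whose product organizes chromatin loops. The CTCF region, at chr16:67595611-67597731, was called at 8 h alone and the CREBBP region, at chr16:3929539-3931470, at both times. Autophagy and lysosome genes had members at 9 of 23, 39.1%, including ATG13 and MAP1LC3B of autophagosome formation and LAMP1. Heat shock and unfolded protein response genes had them at 7 of 23, 30.4%, none of which was called at 3 h, beside 27.8% of all genes with a member, among them HSP90AA1, HSPA1A and DNAJB1. Of 36 named lncRNA and snoRNA host genes, counted over TSS of any biotype, 12 had a member, including MALAT1 and SNHG11, and 11 had a promoter region increased in both lines. The shares of all protein-coding genes do not apply to these counts, and none over all lncRNA genes is given here, so nothing is read from them.

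Members were at 94 of 554 C2H2 zinc finger genes, 16.97%, with 38 of 258 on chromosome 19, 14.7%, against 26.6% of all genes of that chromosome, and 56 of 296 elsewhere, 18.9%. Of 76 histone genes 10 had a member, 13.2%, where the mean share of all genes with a member on the chromosomes of these 76 was 13.8%, and 7 of the 10 were also called at 3 h. Pairs of these genes shared regions, so the 7 genes rest on fewer regions. Of the named ones, H2AC4, H2AC7, H2BC3 and H3C2 were called at both times and H2BC6 and H3-3B at 8 h alone. The regions of the 5 replication-dependent genes among them, all on chromosome 6, had GC contents of 47.8 to 49.2% and CpG ratios of 0.779 to 0.825, so that they missed the GC limit and passed the CpG limit. H3-3B, which encodes the replacement histone H3.3 and is not replication-dependent, had a CpG-island-like region.

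Markers of other cell types were used as a side count. Of 31 T-cell, NK, myeloid and stromal markers 6 had a member, 19.4%, near the background of 17.4%, none was called at 3 h and 0 had a promoter region increased in both lines. They were CD5 and CD8A of T cells, EPCAM, KRT8 and KRT18 of epithelium and COL1A1 of fibroblasts. KRT8 and KRT18 shared 1 region, and the COL1A1 region did not cover the TSS. Increased accessibility is no measure of transcription, and no RNA values were used here.

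In the window from 250 bases before to 50 bases after the TSS nearest each member, the SP/KLF word GGGCGG was the most frequent of the 11 searched. On either strand it was in 71.8% of windows (2754 of 3837, 70.3 to 73.2), in 71.3% (68.8 to 73.6) of promoters increased in both lines, in 34.5% (31.7 to 37.4) of VAL-only decreased promoters and in 37.4% of the windows of the same length at all 110176 annotated TSS positions. The TATA word TATAAA went the other way, with 4.59% (3.97 to 5.30) of members, 5.31% (4.24 to 6.64) of promoters increased in both lines, 17.1% (14.9 to 19.5) of decreased ones and 14.0% of all TSS. The NF-Y word was in 17.7% of members and 13.5% of all TSS, the E-box in 10.6% and 6.44%, the CRE in 2.55% and 1.54%, the NRF1 word TGCGCATGC in 2.48% and 1.31%, and the CGCG word in 1.69% and 0.924%. The AP-1 words TGAGTCA and TGACTCA were in 2.66% of members and 4.47% of all TSS, and the NFkB words in 0.443% and 0.241%.

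The ETS and YY1 words were less frequent in the VAL-only increased promoters than in those increased in both lines. ETS was in 6.67% of members (5.92 to 7.51) against 11.5% (9.92 to 13.3), and YY1 in 5.24% (4.58 to 5.99) against 7.68% (6.37 to 9.22), with intervals that did not overlap. All TSS carried them in 3.56% and 3.12%. For the other 9 words the intervals of both increased sets overlapped.

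These contrasts were smaller or absent against another background. All TSS positions include many of noncoding and minor transcripts, and with 1 TSS per protein-coding gene (19845 windows) the shares were 61.5% for SP/KLF, 6.17% for ETS, 17.8% for NF-Y, 2.68% for the CRE, 1.74% for CGCG and 9.63% for TATA. The shares of NF-Y, CRE and CGCG in all members were no higher than these. The 3008 members whose nearest TSS is protein-coding had SP/KLF in 78.6% (77.1 to 80.1), ETS in 7.65% (6.75 to 8.65), NF-Y in 19.3% (17.9 to 20.8) and TATA in 3.66% (3.04 to 4.39). Composition also went with the words, with SP/KLF in 83.2% of CpG-island-like members and 42.8% of the others, TATA in 3.23% and 8.02%, and AP-1 in 1.49% and 5.62%.

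**Figure D5:**
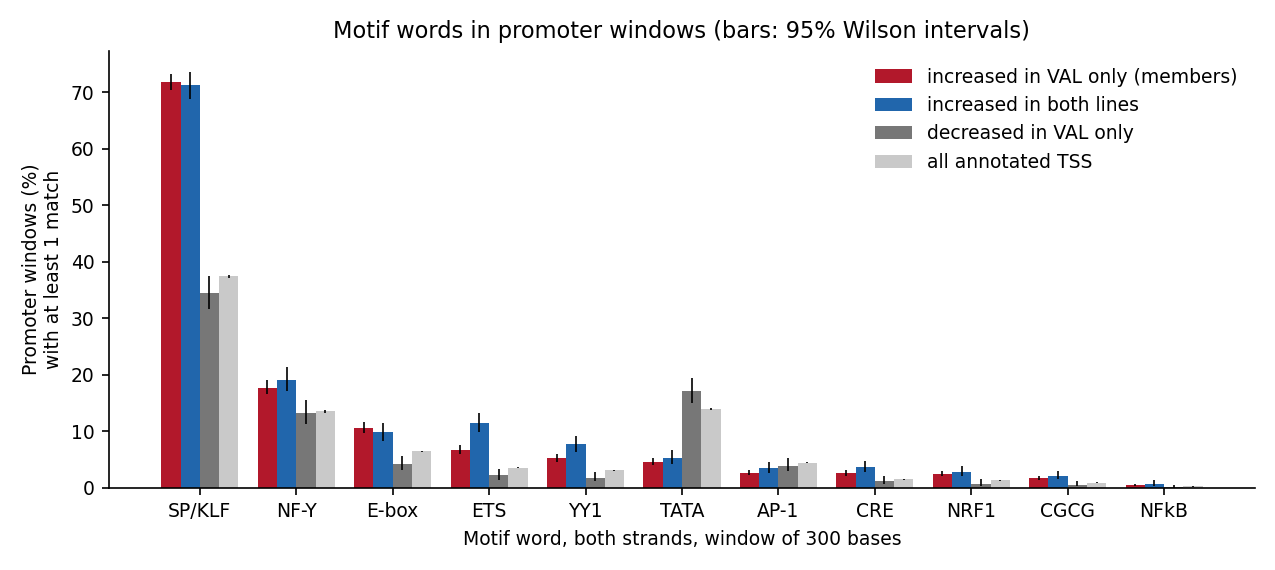
Percent of 300-base promoter windows with at least 1 match on either strand to each of 11 motif words (x axis), for VAL-only increased promoters (red), promoters increased in both lines (blue), VAL-only decreased promoters (dark gray) and all annotated TSS (light gray), with 95% Wilson intervals as error bars. SP/KLF reaches 71.8 and 71.3% in the increased sets against 34.5% in the decreased set, TATA is lower in both increased sets, and ETS and YY1 are lower in red than in blue.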

How the data were processed

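ATAC-seq was carried out on 24 libraries of OCI-LY3 and VAL cells. As described in the methods of the study, mapping by the authors used Bowtie2 and hg19, and reads that were mitochondrial, PCR duplicates or not uniquely mapped were discarded. MACS2 peaks of the single samples were merged and their reads counted with bedtools, after which the authors called changed regions with DESeq2. They deposited 8 lists of region coordinates with no other values. The limit on the adjusted p differs between the methods and a legend, and the methods describe Fast-ATAC on 50000 cells where the labels give 5000. For ATAC-seq, tool versions and the transposase read offset are not given in the sources used here. Because peaks were merged across samples, one region has the same coordinates in every list.

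Distances ran from the nearest region edge to TSS of basic transcripts of GENCODE 44 lifted to GRCh37. GC content, CpG ratio, motif words (no mismatch) and the coverage profile were computed from GRCh37 with Python 3.11.15, pandas 2.3.3, numpy 2.4.6, scipy 1.17.1 and pysam 0.24.0, with code tested on simulated data. Representative TSS are the canonical transcripts of GENCODE. No test was made, since no library has a value. Genes were named by list, up to 6 each in alphabetical order with those whose TSS is covered first, plus genes the study names, the 5 widest regions and the genes with most regions. The CDK9 promoter belongs to the first group. The regions, gene lists, motifs and alternatives were chosen with earlier results of these data known. A few planned items, among them a promoter stretch with the SP/KLF word, are not reported here.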

Additional observations from a re-analysis of the deposited data

How the results depend on the processing

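Of 71 values recomputed under other settings, 55 stayed within the counting interval of the reported value (counts of regions within 1.5 times) and 16 moved. The CpG-island-like share was 74.2% with TSS within 500 bp, 66.7% within 2000 bp, 74.4% with distance from the region midpoint, 80.4% with protein-coding transcripts only and 75.1% over 300 bases around the midpoint. The share with TSS on both strands was 26.0% by the midpoint and 10.7% with protein-coding transcripts only. The median GC content was 62.4% within 2000 bp and 63.9% with protein-coding transcripts only. The share of protein-coding genes with a VAL-only increased promoter was 18.3% within 2000 bp, 16.9% by the midpoint and 16.7% without chromosome 19. Without chromosomes 16, 17, 19, 20 and 22, a setting chosen after seeing the data, there were 2097 regions, 16.9% of them called at 3 h, 58.4% with the center downstream of the TSS, and 12.3% of the remaining genes. Requiring no OCI-LY3 region within 1000 bp (3799 regions) or merging neighbors (3805 regions) moved none of them. Judging absence from OCI-LY3 by overlap gave the same 3837 regions by construction, since regions of 1 merged set cannot overlap, and accounts for 8 of the 55. All 33 recomputed motif shares moved, with a window of another length and position or another background, and the cause was not tested. The whole region held SP/KLF in 89.3% and TATA in 22.2%, and 200 bases around the midpoint in 56.1% and 2.45%. No paired analysis was possible because the libraries have no separate values. For the same reason no library could be left out, and the depth behind each call is unknown.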
